A study of Mus musculus with 300 samples.

Results

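Transcripts of 2 inhibitors of DNA binding, Id2 and Id3, and of the 3 E proteins Tcf3, Tcf12 and Tcf4 were followed through single cells of the embryonic thymus. The 5 genes were chosen by name, and they are 5 of the 13737 features of the deposited matrix. The study profiled early thymic progenitors by single-cell RNA sequencing at E15.5 (the embryonic day), in a mouse strain named 5x polychromILC that carries several reporter alleles. The labels give 300 cells of 4 mouse ids (1A, 1B, 2A and 2B), with no treatment and no second group, and the reporter alleles are shared by all of them. Mouse 1A gave 67 cells of the matrix, mouse 1B gave 69, mouse 2A gave 64 and mouse 2B gave 61, and 39 labelled cells were not analysed here. Whether a mouse id is 1 embryo or several, and how cells were gated or placed on plates, is not stated in the labels.

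E proteins are basic helix-loop-helix transcription factors that bind E-box DNA as dimers and promote the T- and B-lymphocyte programmes. Tcf3 encodes E2A (E12 and E47), Tcf12 encodes HEB, and Tcf4 encodes E2-2, the factor that specifies plasmacytoid dendritic cells. Id proteins have the helix-loop-helix but lack the basic region, so they pair with E proteins and keep them off DNA. Id2 is required for innate lymphoid and natural killer (NK) cell development, and Id3 restrains E proteins downstream of receptor signals in developing T cells.

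The E-box, CANNTG (a palindrome, so it reads the same on both strands), was marked in 2 promoters, 1 of an Id gene and 1 of an E protein gene whose differences between NK-like and progenitor-like cells, given below, had opposite signs in both mice compared. The windows run from 250 bases before to 50 after the start of each gene, from RefSeq on GRCm38.p6, and capitals mark each E-box. That of Id2 is chr12:25096043-25096342, minus strand, and that of Tcf3 is chr10:80433586-80433885, minus strand.
Id2: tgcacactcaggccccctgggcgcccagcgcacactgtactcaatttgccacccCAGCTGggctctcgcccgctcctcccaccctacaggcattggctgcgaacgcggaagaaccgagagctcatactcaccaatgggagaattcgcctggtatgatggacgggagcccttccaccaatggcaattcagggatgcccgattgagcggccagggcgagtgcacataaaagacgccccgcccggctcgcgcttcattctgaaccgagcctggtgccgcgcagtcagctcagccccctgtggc
Tcf3: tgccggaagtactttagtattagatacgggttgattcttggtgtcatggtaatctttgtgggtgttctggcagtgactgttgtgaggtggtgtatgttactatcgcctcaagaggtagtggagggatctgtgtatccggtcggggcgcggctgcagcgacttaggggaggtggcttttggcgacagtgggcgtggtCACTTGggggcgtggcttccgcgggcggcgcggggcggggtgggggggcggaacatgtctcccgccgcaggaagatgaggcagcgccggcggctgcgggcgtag
Each of these windows holds 1 E-box, CAGCTG in that of Id2 and CACTTG in that of Tcf3. The window of Id3 holds none. Of 32851 promoters of the same length, 72.3% hold at least 1 CANNTG and 16.3% hold CAGCTG, so a match here is common and is a description of the letters only.

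On GRCm38 the annotated genes span chr12:25093799-25097140 (Id2), chr4:136143497-136145755 (Id3), chr10:80409514-80433647 (Tcf3), chr9:71842688-72111871 (Tcf12) and chr18:69343356-69689079 (Tcf4). No other annotated gene within these spans overlaps an exon of the 5 genes. The spans are from GENCODE, and the promoter windows of Id2 and Id3 lie inside them, so RefSeq and GENCODE place the start of these genes differently.

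The deposited values are normalized and batch-corrected on a log2 scale, and they fall into 4 sets of cells, called correction sets here. Any 2 cells of a set share at least 14.3% of their values exactly, and cells of different sets share at most 0.0146%. Within a set, each gene's repeated lowest value served as its level at no reads, and detection means a distance of more than 1e-06 from it. A level is the linear value above the level at no reads. Depth in reads is unknown, and the number of detected genes per cell had a median of 7782 (5073 to 10337). The values need not be per transcript length, so levels were not compared between genes.

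Cells were grouped by clustering on 93 marker genes that do not include the 5 genes. The 4 clusters held 22 NK-like cells, 34 dendritic-like cells, 9 mast- and basophil-like cells and the progenitor-like cells, which were 75.1% of all. Among the marker genes alone, the 10 that led the NK-like cluster were all in the NK list, the 10 that led the dendritic-like cluster were all in the dendritic list, and 9 of the 10 that led the progenitor-like cluster were in the progenitor list. For the mast- and basophil-like cluster it was 4 of 10. Each cluster was named for the list with most genes among these 10, so the counts describe the naming and do not test it. Over all genes, 6, 5 and 4 of the 10 leading genes of the NK-like, dendritic-like and progenitor-like clusters were in their own lists. Id2 itself, which did not enter the clustering, was among the 10 leading the NK-like cells, with tagBFP, Ccr8 and Cd3g. All cells carry the label of early thymic progenitors, and 65 of them fell outside the progenitor-like cluster. NK-like cells came from mice 1A (4), 1B (8) and 2A (10), and mouse 2B had none. The mouse id and the correction set of some of these cells disagree. The 4 NK-like cells of mouse 1A are in set 4, which otherwise holds cells of mice 2A and 2B and 1 cell of 1A, whereas 61 of the 67 cells of mouse 1A are in set 3. Of the 8 of mouse 1B, 2 are in set 3, and 64 of the 69 cells of that mouse are in set 1. Values by mouse rest on the labelled ids, and each comparison was also made without the 14 cells, 6 of them NK-like, in a set with fewer than 10 cells of their mouse, a setting added after seeing the data. Dendritic-like cells numbered 13 (1A), 6 (1B), 6 (2A) and 9 (2B), and progenitor-like cells 45, 54, 46 and 51 in the same order. With 6 clusters the 34 dendritic-like cells fell into 20 led by dendritic genes such as Siglech, 8 with antigen-presentation and epithelial genes and 6 led by macrophage genes. Of the 10 markers that led the 8 cells, 6 were in the dendritic list and 3 in the thymic stroma list (Epcam, Krt8 and Foxn1). The name dendritic-like is thus a loose one, and it covers all 34 cells in the comparisons below unless another setting is named.

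The NK-like cells were not spread over the plates. They occupied 5 unbroken runs of well numbers with 0 other cells inside, and 20 of the 22 were among the first 8 cells of a correction set. Those 32 first cells also held 8 progenitor-like and 2 dendritic-like cells, while only 2 NK-like cells came later. Position and class cannot be told apart for the NK-like cells. The 12 first cells that were not NK-like had a median Id2 value of 5.88 on the log2 scale, against 11.70 in NK-like cells. Their median was above the progenitor-like medians by mouse, which were 3.96 to 4.54. The 12 are of mixed class, 8 of them progenitor-like, so that comparison is not within a class. A part of position in these values was not tested. Detected genes per cell also moved with class, with medians of 6687.5 in NK-like cells, 6563 in dendritic-like cells and 7982 in progenitor-like cells.

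**Figure D1:**
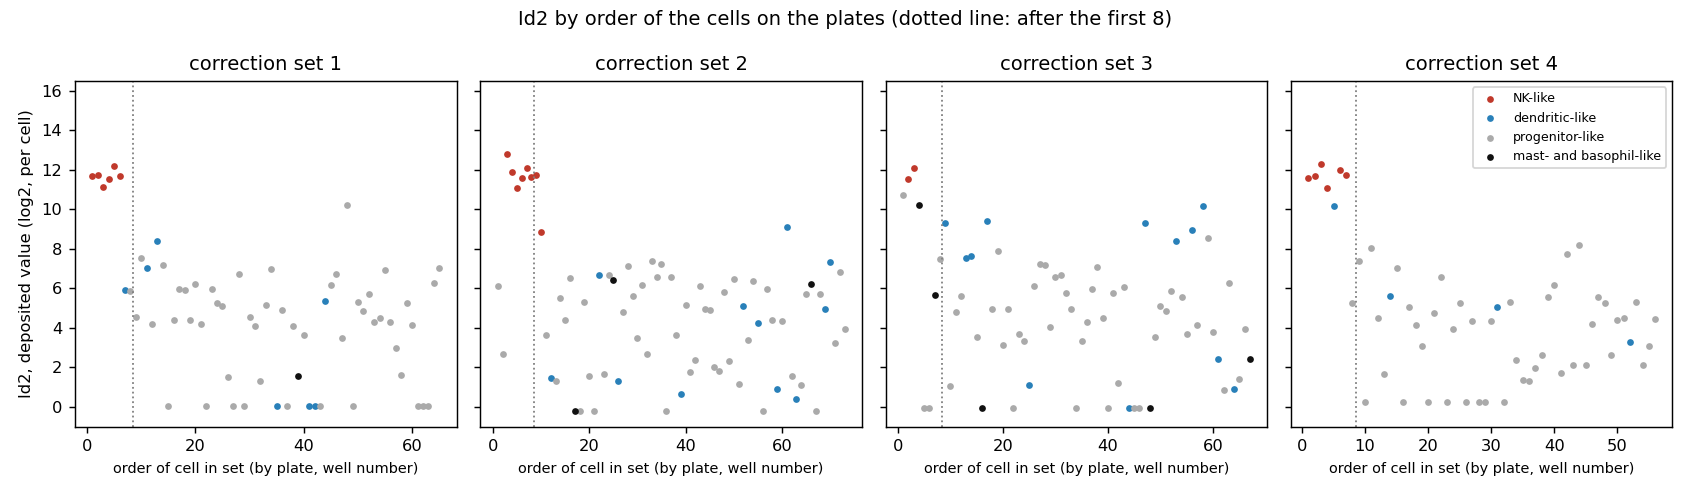
Deposited log2 value of Id2 in each cell (y axis) against the order of the cell in its correction set by plate and well number (x axis), 1 panel per set, coloured by class. The NK-like cells lie at 8.84 to 12.82, next to each other at the start of each set, and 20 of 22 lie left of the dotted line after the first 8 cells.

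Over all cells, 4 of the 5 genes were widespread and Id3 was rare. Id2 was detected in 85.8% of cells, between 81.2 and 95.1% by mouse (n = 4), and a level of at least 10 was met in 66.3 ± 8.49% (mean ± SD of mice). Id3 was detected in 26 cells, 9.92 ± 4.35% over mice, and at that level in 5.29 ± 2.73%. Tcf3 was detected in 250 cells (95.9 ± 3.08%), Tcf12 in 220 (84.3 ± 1.30%) and Tcf4 in 220 (84.3%). That level was met in 88.1% of cells for Tcf3, 54.8% for Tcf12 and 52.6% for Tcf4. In correction set 2, Tcf3 had no repeated lowest value, so all of its cells there counted as detected, the lowest at -0.62.

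Id2, the inhibitor tied to innate lymphoid fate, was highest in NK-like cells. It had a lowest, median and highest log2 value of 8.84, 11.70 and 12.82 in the 22 NK-like cells, of -0.07, 5.22 and 10.18 in dendritic-like cells, and of -0.20, 4.38 and 10.73 in progenitor-like cells. The NK-like medians by mouse were 11.65 (1A), 11.68 (1B) and 11.73 (2A), and all NK-like cells had a level of at least 10. Of the other cells, 7 of 34 dendritic-like, 2 progenitor-like (1.02%) and 1 of 9 mast- and basophil-like cells reached the lowest NK-like value, and the remaining cells of those classes lay below it. Progenitor-like medians lay between 3.96 (2B) and 4.54 (1B). Dendritic-like medians spread over 8.41, 2.71, 3.25 and 4.26 in the order 1A, 1B, 2A, 2B. Among the dendritic-like cells, the 20 led by dendritic genes had a median of 7.42, the 6 macrophage-led cells 5.02 and the remaining 8 cells 0.89. Of those 20 cells, 11 came from mouse 1A and 3 from each of mice 1B, 2A and 2B. The part of this make-up in the spread of the dendritic-like medians between mice was not tested.

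tagBFP, assigned here to the Id2 locus from knowledge of the strain, had a median of 12.36 in NK-like cells, 3.45 in dendritic-like cells and 4.92 in progenitor-like cells. Its NK-like median was the highest of the 3, as for Id2, while its dendritic-like median was below its progenitor-like median, the opposite order to Id2.

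Id3, the other inhibitor, was sparse in every class. It was detected in 5 of 22 NK-like cells (22.7%, exact 95% Clopper-Pearson interval 7.82 to 45.4%), in 12 of 34 dendritic-like cells (35.3%, 19.7 to 53.5%), and in 9 progenitor-like cells (4.59%, 2.12 to 8.54%). None of the 9 mast- and basophil-like cells had it. At a level of at least 10 it was found in 5 NK-like cells, 9 dendritic-like cells and 0 progenitor-like cells, and a count of 0 there allows a share of up to 1.53%, taken as 3 cells of the total. Intervals and limits cover counting error only. Mouse 1A had Id3 in 6 of its 13 dendritic-like cells, mouse 1B in 2 of 6, mouse 2A in 0 of 6 and mouse 2B in 4 of 9, and 5 of the 8 cells with antigen-presentation and epithelial genes had it. Of the 26 cells with Id3, 22 also had Id2. Among all cells, Id2 was detected in between 81.2 and 95.1% by mouse. The count is thus near the share of all cells and does not show that the 2 genes go together.

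**Figure D2:**
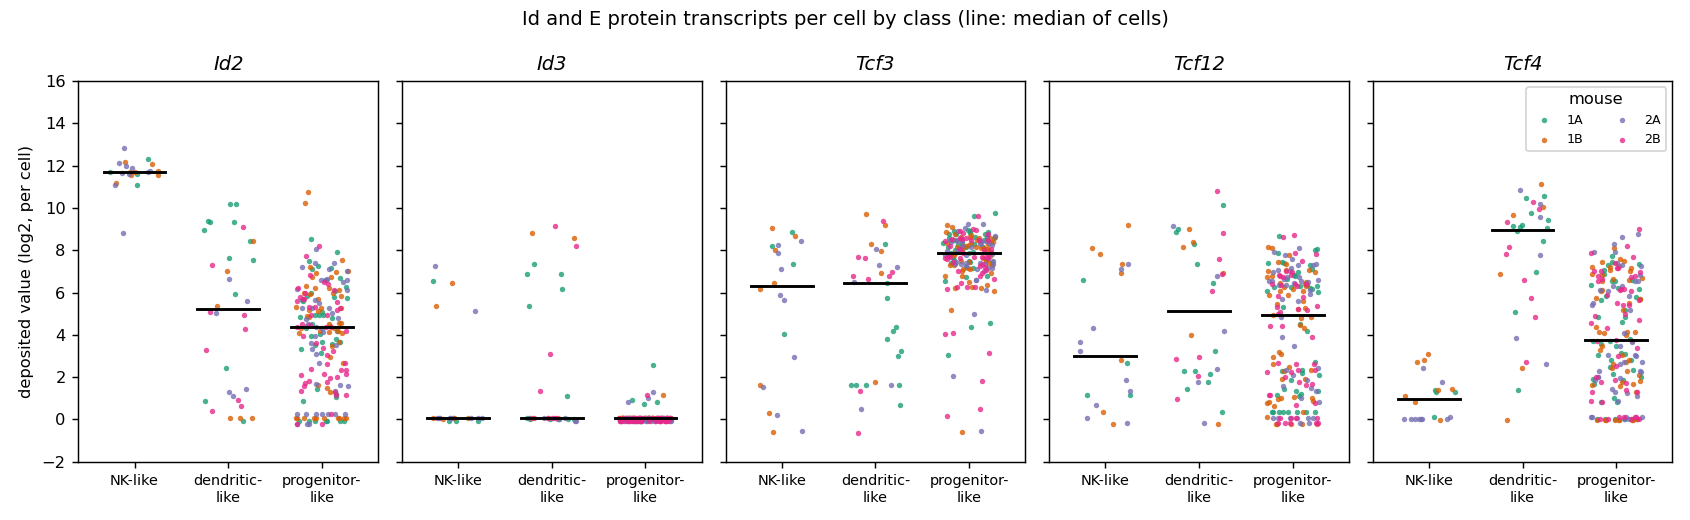
Deposited log2 values (y axis) of the 5 genes in NK-like, dendritic-like and progenitor-like cells (x axis), 1 point per cell, coloured by mouse, with the median of cells as a line. Id2 medians are 11.70, 5.22 and 4.38, Tcf4 medians are 0.97, 8.97 and 3.77, and most cells sit at the level at no reads for Id3.

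Among the E proteins, Tcf3 was nearly uniform in progenitor-like cells and uneven in the other classes. Its lowest, median and highest log2 values were -0.61, 6.33 and 9.05 in NK-like cells, -0.62, 6.47 and 9.70 in dendritic-like cells, and -0.61, 7.88 and 9.75 in progenitor-like cells. A level of at least 10 was reached by 15 of 22 NK-like cells, 22 of 34 dendritic-like cells and 95.9% of progenitor-like cells. Within the dendritic-like cells, mouse 1A had a median of 3.23, against 8.13, 6.85 and 6.79 in mice 1B, 2A and 2B. The 20 cells led by dendritic genes had a median of 3.12, the 6 macrophage-led cells 7.09 and the remaining 8 cells 7.84.

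Tcf4, the gene of E2-2, had the widest spread of class medians among the E proteins. Its lowest, median and highest log2 values were -0.03, 0.97 and 3.10 in NK-like cells, -0.03, 8.97 and 11.12 in dendritic-like cells, and -0.03, 3.77 and 9.02 in progenitor-like cells. No NK-like cell had a level of at least 10, and that 0 of 22 allows a share of up to 13.6%, again as 3 cells of the total, whereas 29 of 34 dendritic-like cells and 55.1% of progenitor-like cells did. Above the highest NK-like value of 3.10 lay 29 of 34 dendritic-like cells and 56.6% of progenitor-like cells. All 20 cells led by dendritic genes had a level of at least 10, with a median of 9.50, against 5.21 in the 6 macrophage-led cells and 4.94 in the remaining 8.

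The ranges of Tcf12, the HEB gene, overlapped among the classes. Its medians were 3.01 in NK-like cells, 5.13 in dendritic-like cells and 4.95 in progenitor-like cells, with ranges of -0.21 to 9.20, -0.21 to 10.79 and -0.21 to 8.74. NK-like medians were 1.92, 7.14 and 2.54 in mice 1A, 1B and 2A, so they did not hold one order relative to the progenitor-like medians of 5.31, 4.82 and 6.02 in those mice.

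Differences between classes were estimated inside each mouse given the correction set and tested over mice with limma. All 12439 genes detected in at least 10% of cells entered the fit, with Benjamini-Hochberg adjustment over them. A call means an adjusted p under 0.05. The 22 NK-like cells could be set against progenitor-like cells in 2 mice only, since the 4 NK-like cells of mouse 1A share no correction set with a progenitor-like cell of that mouse. The p-values measure the spread between the labelled mice, which may be technical, after limma draws each gene's variance toward a value pooled over all genes. With 2 mice that pooled value weighs heavily, so SEs and p-values there do not reflect the spread of a single gene alone. The classes were made from the same cells, on other genes, and the p-values do not allow for that. Mice 2A and 2B draw largely on the same correction sets.

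Between NK-like and progenitor-like cells, Id2 had a difference of 7.15 ± 0.46 on the log2 scale (SE, limma, positive in 2 of 2 mice), with mouse 1B at 6.83 and mouse 2A at 7.48. Its adjusted p of 0.0551 in limma missed the threshold. Tcf3 stood at a difference of -2.84 ± 0.46 (limma adjusted p = 0.0705) and Tcf4 at -2.71 ± 0.52 (limma adjusted p = 0.0753), both negative in both mice. Tcf12 was at 1.87 in mouse 1B and -1.74 in mouse 2A, a mean of 0.06 ± 1.00 (limma adjusted p = 0.973). In this fit 0% of the 12439 genes were called, 3786 (30.4%) had an unadjusted p under 0.05, and the median difference of all genes was -0.68.

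With the correction sets in place of mice, 3 sets entered, and Id2 (7.70, limma adjusted p = 0.0131), Tcf3 (-2.14, 0.0368) and Tcf4 (-3.15, 0.0238) passed, against 1.88% of genes called higher and 8.47% called lower. Without the set as a covariate, 3 mice entered, and Id2 (7.54, limma adjusted p = 0.0094) and Tcf4 (-2.84, 0.0227) passed, while Tcf3 (-2.05, 0.0683) did not, against 2.24% called higher and 11.4% called lower. With the number of detected genes as a covariate, a setting added after seeing the data, Tcf4 was at -1.78 (limma adjusted p = 0.460). With classes from the variable genes in place of the markers, where the NK class held 49 cells (the 22 NK-like, 15 progenitor-like, 9 mast- and basophil-like and 3 dendritic-like cells), Id2 was at 1.97, positive in 3 of 4 mice (limma adjusted p = 0.127). Without the 14 cells in a set with few cells of their mouse, Id2 was at 7.51 (limma adjusted p = 0.0498, with 0.297% of genes called higher), Tcf3 at -2.86 (0.0637) and Tcf4 at -3.02 (0.0610). None of these could be repeated without the first 8 cells of each set, which left too few NK-like cells.

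Between dendritic-like and progenitor-like cells, Tcf4 was higher in 4 of 4 mice. The differences were 4.92 (1A), 2.65 (1B), 3.16 (2A) and 3.17 (2B), a mean of 3.47 ± 0.45 (SE), and it was called with a limma adjusted p of 0.00468, where 2.72% of genes were called higher and 24.3% lower. The median difference of all genes was -0.64. With correction sets in place of mice the difference was 2.88 and missed the threshold (limma adjusted p = 0.0901, with 1.29% of genes called higher). With classes from variable genes, Tcf4 was at 5.39 and was called (limma adjusted p = 0.00245, 3.31% of genes called higher). In set 4 the mean of the 4 dendritic-like cells was 3.40, against 4.12 in the 46 progenitor-like cells there, whereas in sets 1, 2 and 3 it was 7.24, 8.04 and 8.77 in dendritic-like cells, against 4.05, 3.95 and 3.81 in progenitor-like cells. Of the 4 dendritic-like cells of set 4, 0 were among the 20 led by dendritic genes. The 4 were 3 of the 8 cells with antigen-presentation and epithelial genes and 1 macrophage-led cell. The part of this make-up in the value of set 4 was not tested.

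In the same comparison Tcf3 had a negative difference in 4 of 4 mice, at -4.31 (1A), -0.26 (1B), -2.24 (2A) and -1.23 (2B), but the mean of -2.01 ± 0.65 missed the threshold (limma adjusted p = 0.0585). Without mouse 1B it was -2.59 and passed (limma adjusted p = 0.0430, with 18.3% of genes called lower). With classes from variable genes it was -3.57 and passed (limma adjusted p = 0.0205, 28.8% of genes called lower), and with the number of detected genes as a covariate it was -1.11 (limma adjusted p = 0.190). Tcf12 had a difference of 0.82 ± 0.54 (limma adjusted p = 0.294) and Id2 of 0.46 ± 0.58 (limma adjusted p = 0.595), each positive in 2 of 4 mice. Without mouse 1A the Id2 difference was -0.26. Id3 fell short of the detection filter. Without that filter its mean difference was 1.92 ± 0.54 (limma adjusted p = 0.0574), with 2.45 (1A), 2.86 (1B), -0.062 (2A) and 2.42 (2B), where 2.29% of 13736 genes were called higher.

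Between NK-like and dendritic-like cells, Id2 had a difference of 5.81 ± 1.61, positive in 3 of 3 mice (limma adjusted p = 0.650), and Tcf4 of -4.26 ± 1.51, negative in 3 of 3 mice (limma adjusted p = 0.672). Neither passed, 0% of genes were called, and 921 (7.40%) had an unadjusted p under 0.05. Mouse 1A was at 1.502 for Id2 and -0.37 for Tcf4, where a single dendritic-like cell shared a correction set with its NK-like cells. The other mice were at 8.17 (1B) and 7.77 (2A) for Id2, and at -5.39 (1B) and -7.03 (2A) for Tcf4. With classes from variable genes the Id2 difference was 0.97, positive in 2 of 4 mice (limma adjusted p = 0.817). Without the set as a covariate, Tcf4 was at -6.43 and was called (limma adjusted p = 0.0393, 0.273% of genes called lower), and Id2 was at 6.99 (limma adjusted p = 0.0540).

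**Figure D3:**
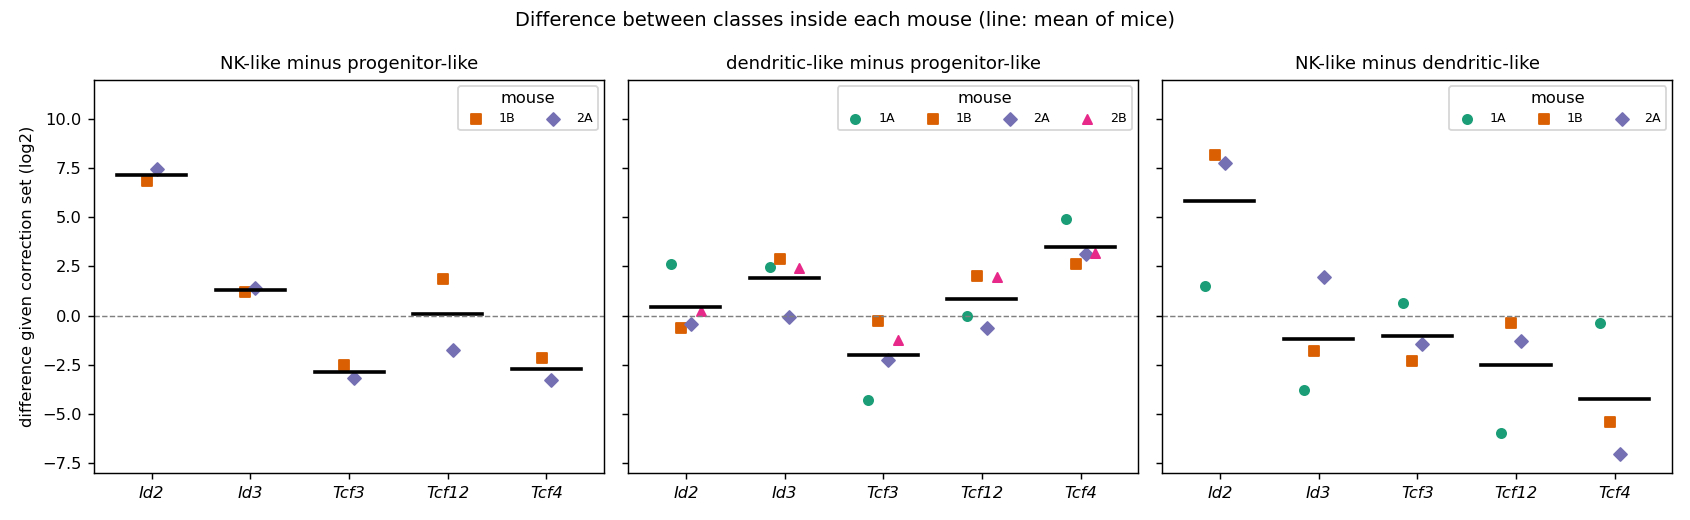
Difference between classes given the correction set (y axis, log2) for each gene (x axis), 1 marker per mouse and the mean of mice as a line. Id2 is above 0 in every mouse in both NK-like comparisons, and Tcf4 is above 0 in 4 of 4 mice in the dendritic-like minus progenitor-like comparison.

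The balance of Id to E protein transcripts in a cell was taken as log2 of the summed Id2 and Id3 levels plus 1, minus log2 of the summed Tcf3, Tcf12 and Tcf4 levels plus 1. It orders cells and does not compare molecules, so 0 is a mark on the scale and not a point of equal amounts. As a score over chosen genes it was given no test. Its lowest, median and highest values were 0.06, 3.89 and 9.61 in NK-like cells, -10.47, -2.60 and 1.49 in dendritic-like cells, and -10.04, -3.92 and 3.81 in progenitor-like cells. All 22 NK-like cells were above 0, as were 5 of 34 dendritic-like, 7 progenitor-like (3.57%) and 2 of 9 mast- and basophil-like cells, and each of those reached the lowest NK-like value. Among the first 8 cells of each correction set, 4 of the 12 that were not NK-like (33.3%) were above 0, as was 1 of the 8 progenitor-like cells (12.5%).

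Inside mice, the NK-like minus progenitor-like difference of medians was 7.55 (1A), 7.43 (1B) and 8.98 (2A), a mean of 7.98 ± 0.86 (SD, n = 3). These medians leave the correction set aside, and given the set mouse 1A has no value and the differences of means were 6.80 (1B) and 10.14 (2A). The dendritic-like minus progenitor-like difference was 3.47 (1A), 0.85 (1B), -1.68 (2A) and 1.34 (2B), a mean of 1.00 ± 2.11 (SD, n = 4), which is smaller than its spread. The NK-like minus dendritic-like difference was 4.08, 6.57 and 10.65 in mice 1A, 1B and 2A, a mean of 7.10 ± 3.32 (SD, n = 3). Among dendritic-like cells the balance of mouse 1A, with a median of -0.53, was the highest and that of mouse 2A, at -5.70, the lowest.

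**Figure D4:**
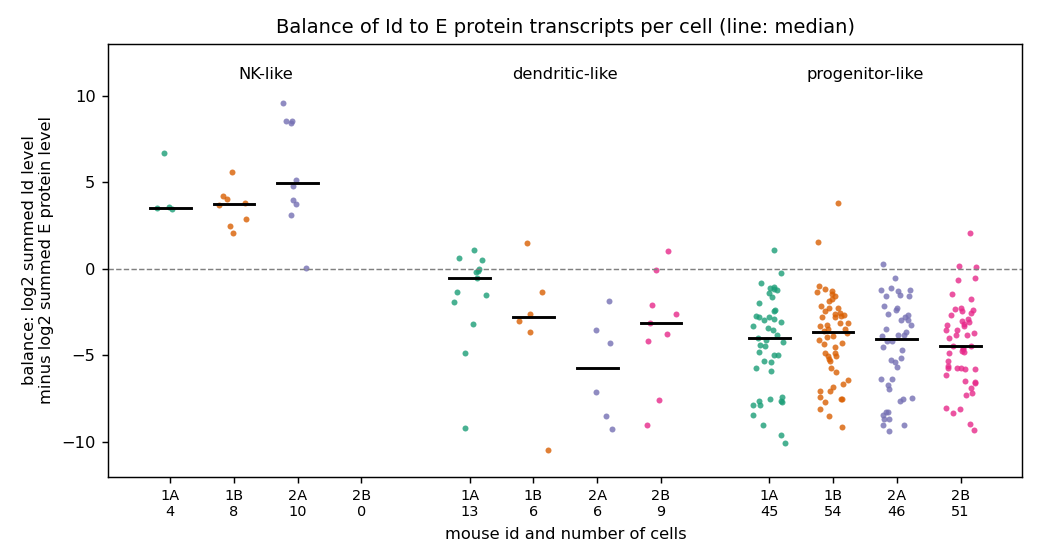
Balance of Id to E protein transcripts per cell (y axis, log2) by class and mouse (x axis, with the number of cells), with the median as a line and 0 dashed. NK-like cells of the 3 mice lie at 0.06 or above, and most dendritic-like and progenitor-like cells lie below 0.

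The E protein genes present at a level of at least 10 were also counted per cell. All 3 were present in 0 of 22 NK-like, 8 of 34 dendritic-like and 32.1% of progenitor-like cells, and none of the 3 in 3, 1 and 2 cells of those classes. The 0 of 22 follows from Tcf4, which no NK-like cell had at that level, and is not a further result. An Id gene was present without any E protein gene in 3 NK-like cells, 1 dendritic-like cell and 1 progenitor-like cell, and an E protein gene without any Id gene in 0, 8 and 68 cells.

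Other genes of the pathway were counted by list, leaving out genes used for the clustering, and all by limma adjusted p under 0.05. Of 13 tested E protein targets, 3 rose (23.1%) and 4 fell (30.8%) in dendritic-like against progenitor-like cells, where 2.72% of all genes rose and 24.3% fell. The count lower is near the share of all genes. The median difference was -0.06 against -0.64 over all genes. Those higher were Ccr9 (4.12, adjusted p = 0.0104), a chemokine receptor, Foxo1 (1.52, 0.0250) and the cytokine receptor gene Il7r (2.46, 0.0319). Those lower included the Notch target Hes1 (-2.83, 0.00983), Notch1 (-2.24, 0.0320) and the repressor gene Gfi1 (-1.34, 0.0382). In NK-like against progenitor-like cells 0 of 13 were called. An unadjusted limma p under 0.05 was met by 5 of the 13, where 30.4% of all genes met it, so this count is near the share of all genes. With correction sets as units 4 were called, all lower (against 8.47% of all genes), namely Hes1 (-2.86), Notch1 (-2.39), Notch3 (-1.88) and Rag2 (-2.52), a subunit gene of the recombinase.

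Of 11 E protein partners and cofactors, 4 (36.4%) fell in dendritic-like against progenitor-like cells and none rose, against the same 24.3% of all genes lower. They were Ldb1 (-2.73, adjusted p = 0.00845), an adaptor of LIM complexes, the corepressor gene Cbfa2t2 (-1.87, 0.0165), the acetyltransferase gene Kat2a (-2.40, 0.0200) and Lmo1 (-1.19, 0.0360). Of 16 genes listed as Id regulators, 2 rose (12.5%) and 5 fell (31.2%), the last near the share of all genes. Ets1 rose by 3.35 (adjusted p = 0.00347), and Stat5a (-3.90, 0.00239), Tox (-3.44, 0.00366), Smad3 (-2.67, 0.0140), Zbtb16 (-1.35, 0.0342) and Stat3 (-1.97, 0.0444) fell. In NK-like against progenitor-like cells no gene of either list was called, and with correction sets as units Ets1 (6.49) was higher and Stat5a (-4.61) lower. Each is 6.25% of the Id regulators, against 1.88% of all genes called higher and 8.47% lower, so the count lower is near the share of all genes.

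Lists of cell cycle, T specification and innate lymphoid cell (ILC) genes were counted in the same way. Of 15 S phase genes, 15 fell in dendritic-like against progenitor-like cells, with a median of -3.26 and Mcm7 (-3.86), Mcm4 (-3.87), Gins2 (-3.72), Cdc6 (-3.66), Mcm6 (-3.64) and Fen1 (-3.00) leading. Of 15 G2M phase genes 7 fell (46.7%, against 24.3% of all genes), among them Tpx2 (-1.93), Aurka (-2.03), Plk1 (-1.71), Cdc20 (-2.58), Cdk1 (-2.14) and Aurkb (-1.79). Of 17 T specification genes 2 rose (11.8%, against 2.72% of all genes) and 10 fell (58.8%, against 24.3%). Trbc2 (-6.15), Trbc1 (-5.56), Cd27 (-5.16), Lck (-4.36), Nrarp (-3.65) and Gata3 (-3.39) were lowest by adjusted p. Of 16 ILC genes 1 rose (6.25%) and 7 fell (43.8%), against the same shares of all genes. Those lower included Cd160 (-4.26), Il17rb (-3.11), Itga4 (-2.79), Ltb (-2.33) and Itgb7 (-1.60). With correction sets in place of mice, where 1.29% of all genes were called higher and 9.91% lower between dendritic-like and progenitor-like cells, the counts lower were 9 for S phase, 0 for G2M phase, 10 for T specification and 5 for ILC genes, and 1 T specification gene was higher. In that fit 1 target was higher and 1 lower, 0 partners were called, and 1 Id regulator was higher and 2 lower. The higher target was Cd4 (1.798, limma adjusted p = 0.0379), which was not called over mice (limma adjusted p = 0.0589). Ccr9 (3.42), Foxo1 (1.77) and Il7r (1.95), the targets called higher over mice, were not called with correction sets as units. With the number of detected genes as a covariate, where 1.68% of all genes were called higher and 4.27% lower, 8 S phase, 9 T specification, 4 ILC and 0 G2M phase genes were lower, and the G2M phase median turned to 0.22, with 10 of 15 genes above 0. The same fit had 1 target higher and 1 lower, 0 partners, 1 Id regulator higher and 2 lower, and 1 T specification gene higher. In NK-like against progenitor-like cells none of these lists had a call over mice. There, with correction sets as units, 1.88% of all genes were called higher and 8.47% lower. In that fit 7 ILC genes were higher (43.8%) and 2 lower (12.5%), with Ltb (4.88), Il18r1 (5.78), Cxcr6 (5.93), Lta (2.76) and Cd160 (3.74) among the higher. T specification genes then had 3 higher (17.6%), Cd7 (6.13), Ets1 (6.49) and Cd3g (7.61), and 1 lower (5.88%), Cd27 (-2.47). The counts lower of both lists are near the share of all genes. The part of cell cycle or class composition in the values of the 5 genes was not tested.

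Genes with the pattern most like each of the 5 were found by partial Spearman correlation across the cells of each mouse, given the number of detected genes and the correction set, and averaged over 4 mice. Cells of a mouse share libraries, plates and class, so the values are descriptions. Id2 was most like tagBFP (mean rho 0.76), Cd226 (0.40), Klrd1 (0.40), Itgb2 (0.37) and Laptm5 (0.36), of which Klrd1 encodes an NK receptor subunit and is among the markers of the clustering. Most unlike it were Sox4 (-0.28), Gm20390 (-0.28), Sp3 (-0.27), the progenitor factor gene Myb (-0.27) and Tbc1d14 (-0.26). Tcf4 was most like Ptpn6 (0.40), Tifab (0.40), Snx18 (0.37), Themis2 (0.36) and Runx2 (0.35), and most unlike Ifitm2 (-0.36), Nkg7 (-0.35), Ifitm1 (-0.31), Gm14287 (-0.29) and Babam2 (-0.29). Runx2 is a marker of the dendritic list and Nkg7 of the NK list.

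For Tcf3 and Tcf12 the highest mean rho was below that of Id2 and that of Tcf4, and for Id3 it lay between them. Tcf3 was most like Psph (0.34), Gar1 (0.31), A230050P20Rik (0.31), Ssbp4 (0.31) and Sox4 (0.30), and most unlike Herc3 (-0.26), Cul3 (-0.24), Zbtb37 (-0.23), Cdh1 (-0.23) and Il1rl1 (-0.23). Tcf12 was most like Gnb4 (0.26), Siglech (0.25), Myzap (0.24), Vps13a (0.22) and Yipf6 (0.22), and most unlike Fcgr3 (-0.25), Trp53bp2 (-0.25), Rad54l2 (-0.24), Pi16 (-0.23) and 1500011B03Rik (-0.22). Id3 was most like Hs3st3b1 (0.44), Nrep (0.35), Skil (0.30), Pcdhgc4 (0.29) and Zfp974 (0.28), and most unlike Rif1 (-0.27), Fut8 (-0.27), Ankrd27 (-0.26), Pycrl (-0.25) and Dctpp1 (-0.25). Over all 12439 genes the median size of rho was between 0.045 and 0.056, and between 12.5% (Tcf12) and 17.9% (Tcf4) of genes kept 1 sign in 4 of 4 mice. In progenitor-like cells alone, 5 of the 10 genes named for Id2, 2 of those for Id3 and 4 of those for Tcf4 still kept 1 sign in 4 mice.

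Among the 5 genes themselves, no pair reached a mean rho beyond 0.17 in size over all cells. The most negative were Id3 with Tcf3 (-0.17, positive in 1 of 4 mice) and Id2 with Tcf3 (-0.14, positive in 1 of 4 mice), and the most positive was Id3 with Tcf12 (0.10, positive in 4 of 4 mice). In progenitor-like cells alone, Id2 with Tcf4 was at 0.16, positive in 3 of 4 mice. Correlations this weak in sparse single cells are not a finding.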

How the data were processed

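Single cells were profiled by plate-based RNA sequencing, with oligo-dT priming, PCR preamplification and tagmented libraries per the labels' protocols. The deposited values are normalized, batch-corrected log2 expression per gene and cell; per the submitters' processing notes the tools include Salmon, with the build GRCm38 and no version, and no source names the normalization or the correction. The tested log2 values were used as they are. Depth in reads is unknown, so precision rests on the number of cells, and shares carry exact Clopper-Pearson intervals, or, for a count of 0, a limit of 3 cells of the total.

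Classes were Ward clusters on 93 markers centred per correction set, with the smallest number of clusters from 4 to 15 that separated progenitor, NK and dendritic clusters. Doublets were not called. Per mouse with at least 3 cells of each class, a least squares difference given the correction set was computed and tested with limma 3.58.1 in R 4.3.3 (intercept only, no trend, two-sided, threshold 0.05). Each labelled mouse is a replicate. The 5 genes, lists and tests were chosen with earlier results of these data known. The fit was checked on simulated data. Named genes were the 5 genes, the 5 highest and 5 lowest by mean rho, and up to 6 called genes per list. Alternatives tried are in the closing section. One reporter of the strain is left out.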

Additional observations from a re-analysis of the deposited data

Results flagged for a closer look

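Of 50 groups of 4 mice, 6 had a mouse whose gap to the nearest other took up more of the whole range than Dixon's 95% critical value for 4 values, and chance flags about 1 in 20 groups. Mouse 1B stood apart in dendritic-like cells, of which it has 6, with Id2 in 50% of them against 92.3 to 100% in the other mice, and with Tcf4 in 83.3% against 100%. Mouse 2B had the lowest Id2 median over all cells, 4.20 against 4.91 to 5.04, and it has no NK-like cells. Mouse 1A had Id3 in 16.4% of all cells against 7.25 to 8.20%. Mouse 1B had Tcf12 in 88.9% of progenitor-like cells against 82.2 to 82.6%. The dendritic-like minus progenitor-like difference of Id3 was -0.062 in mouse 2A against 2.42 to 2.86 in the others.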

How the results depend on the processing

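Differences were taken inside each mouse, so the classes are already paired by mouse, and the labels, with 1 group of cells, give no further pairing. The number of genes called was 3366 between dendritic-like and progenitor-like cells and 1302 to 2577 with 1 mouse left out, and Tcf4 there ranged over 2.99 to 3.75, Tcf3 over -2.59 to -1.24 and Id2 over -0.26 to 0.82, the negative value without mouse 1A. The genes called between NK-like and progenitor-like cells numbered 0 over mice, 1692 without the set as a covariate (Id2 7.54, Tcf4 -2.84, Tcf12 -0.52), 1287 with sets as units (Id2 7.70, Tcf3 -2.14, Tcf4 -3.15, Tcf12 -0.30), 544 with aligned values and no covariate, added after seeing the data (Id2 7.49, Tcf4 -2.86, Tcf12 -0.43), and 4335 with classes from variable genes (Id2 1.97, Tcf3 -3.02, Tcf4 -1.74, Tcf12 -0.14, 49 cells in the NK class). Without the 14 cells in a set with few cells of their mouse, added later, 68 genes were called (Id2 7.51, Tcf12 -0.053). Setting levels under 10 to no reads gave Tcf12 -0.10. Between dendritic-like and progenitor-like cells sets as units gave 1394 genes and Tcf4 2.88, the number of detected genes as a covariate, added later, 740 genes, and variable-gene classes Tcf3 -3.57. Between NK-like and dendritic-like cells the counts were 0, 76 without the covariate (Tcf4 -6.43, Tcf3 0.25) and 79 with variable-gene classes (Id2 0.97, Tcf4 -8.12, Tcf3 0.68), and Tcf3 was 0.80 with aligned values. The balance difference between NK-like and progenitor-like cells was 7.98 and 4.91 with variable-gene classes, where the cause was not tested. The shares of cells with a level of 10 or more were 66.3% (Id2), 5.29% (Id3), 88.1% (Tcf3), 54.8% (Tcf12) and 52.6% (Tcf4). Of the 10 genes most like a gene, 5, 2 and 4 kept 1 sign for Id2, Id3 and Tcf4 in progenitor-like cells. For the 5 genes, the balance and the shares, the other settings run kept direction and side of the threshold. NK comparisons without the first 8 cells could not be fitted, and leaving out mouse 1B or 2A left the NK-like minus progenitor-like comparison with 1 mouse and no test.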
